A study of Mus musculus with 6 samples.

Results

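The clade B serpins were described in primary prostate cells that lacked p53, with Rb deleted or with Rb intact. They were taken as every gene whose symbol begins with Serpinb. The gene table held 29 such genes, of which 27 had at least 1 probe on the array, with 31 probes in all. Of these, 14 genes had a probe that passed the filter on dim signal, among 13715 genes that passed of the 20757 named. The family was chosen by a measured value of these same arrays, the lower signal of Serpinb9 genes in Rb deleted cultures. The differences of all its members between the groups are therefore given as a description, with no p-value. In the text, a member that rose or fell is one that the limma fit over all genes marked at an adjusted p under 0.05.

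The Rb deleted group held 3 cultures of genotype p53-/- Rb∆f/∆f, infected overnight with an adenovirus that carried Cre. The Rb intact group held 3 cultures of genotype p53-/- Rbf/f, infected in the same way with an adenovirus that carried lacZ. All 6 cultures lacked p53 and grew in Prostacult medium without FBS, with bFGF and bEGF added. RNA was taken 48 hours after infection, and each culture was run on its own 1-colour Agilent array. The virus and the Rb status went together in every culture and cannot be told apart.

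Serpins are protease inhibitors that work as suicide substrates: the protease cuts an exposed loop of the serpin, and both stay locked in a covalent complex. Most serpins are secreted, whereas those of clade B lack a classical signal peptide and act mainly in the cytosol and nucleus. There they hold back proteases that leak from granules and lysosomes, such as granzymes, neutrophil elastase and cathepsins, and several of them mark squamous epithelium. In the mouse the family has been enlarged by tandem duplication, so that several human genes each have a group of close mouse relatives.

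The mouse genes lie in 2 runs, 12 on chromosome 1 and 17 on chromosome 13, counting 1 pseudogene, Serpinb1-ps1. No other protein-coding gene of the table lay within either run. The run on chromosome 1 holds Serpinb2, Serpinb5, Serpinb7, Serpinb8, Serpinb10 to Serpinb13 and the 4 Serpinb3 genes. The run on chromosome 13 holds the Serpinb1, Serpinb6 and Serpinb9 genes. Serpinb9h and Serpinb1-ps1 had no probe under their names.

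The upstream sequences of 5 members are shown because the text turns on them: the 3 Serpinb9 genes that fell, Serpinb9 itself, which did not, and Serpinb2, which fell on the other chromosome. Each is the 250 bases before the annotated start, on the plus strand of GRCm38.p6, credited to RefSeq. Capitals mark matches, on either strand, to TGACGT (part of the cAMP response element), TGANTCA (the AP-1 core) or TATAAA (the TATA box core). No capitals overlap.
Serpinb9e (chr13:33249358-33249607): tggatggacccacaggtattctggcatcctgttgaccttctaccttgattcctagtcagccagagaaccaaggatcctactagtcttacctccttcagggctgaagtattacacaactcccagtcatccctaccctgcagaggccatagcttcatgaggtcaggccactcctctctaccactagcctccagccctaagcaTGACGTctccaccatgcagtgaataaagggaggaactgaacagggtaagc
Serpinb9f (chr13:33323827-33324076): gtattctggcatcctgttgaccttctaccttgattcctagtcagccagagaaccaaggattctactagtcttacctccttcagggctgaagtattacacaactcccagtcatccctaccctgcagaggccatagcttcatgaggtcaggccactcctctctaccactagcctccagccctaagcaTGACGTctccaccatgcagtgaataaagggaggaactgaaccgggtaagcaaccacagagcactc
Serpinb9g (chr13:33484540-33484789): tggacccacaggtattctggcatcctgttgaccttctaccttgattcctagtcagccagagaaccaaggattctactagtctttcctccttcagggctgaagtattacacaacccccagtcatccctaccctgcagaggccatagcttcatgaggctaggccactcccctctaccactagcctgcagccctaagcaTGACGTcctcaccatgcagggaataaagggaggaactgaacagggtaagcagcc
Serpinb9 (chr13:33004291-33004540): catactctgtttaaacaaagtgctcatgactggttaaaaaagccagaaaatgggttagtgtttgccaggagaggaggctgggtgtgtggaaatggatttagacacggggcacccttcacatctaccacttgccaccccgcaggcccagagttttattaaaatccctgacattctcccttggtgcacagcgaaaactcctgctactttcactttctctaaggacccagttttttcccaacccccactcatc
Serpinb2 (chr1:107511173-107511422): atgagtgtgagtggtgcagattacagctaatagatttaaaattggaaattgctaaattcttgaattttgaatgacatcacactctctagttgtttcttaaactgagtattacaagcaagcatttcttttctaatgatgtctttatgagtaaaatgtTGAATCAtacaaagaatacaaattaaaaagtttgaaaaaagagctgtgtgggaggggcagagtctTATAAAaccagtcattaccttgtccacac

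The upstream sequences of Serpinb9e, Serpinb9f and Serpinb9g were near copies of each other. Their 3 pairs were identical at 87.74% to 92.91% of aligned positions. Over all 325 pairs of the 26 members with an entry, the range was 42.17% to 92.91% and the median 49.3%. Serpinb9d belonged with them, at 80.75% to 88.63% identity, and Serpinb9c stood farther off, at 60.07% to 64.44%. Serpinb9, the gene most like human SERPINB9, was identical to the 3 at 46.73% to 47.85% of positions, and Serpinb9h at up to 51.7%. Outside this group Serpinb3b and Serpinb3c were identical at 88.08%, and Serpinb3a matched these at 77.01% and 71.83%. Serpinb6d and Serpinb6e were identical at 67.65%. Identities are of the upstream sequence and not of the probes; probe sequences were not used here.

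**Figure D1:**
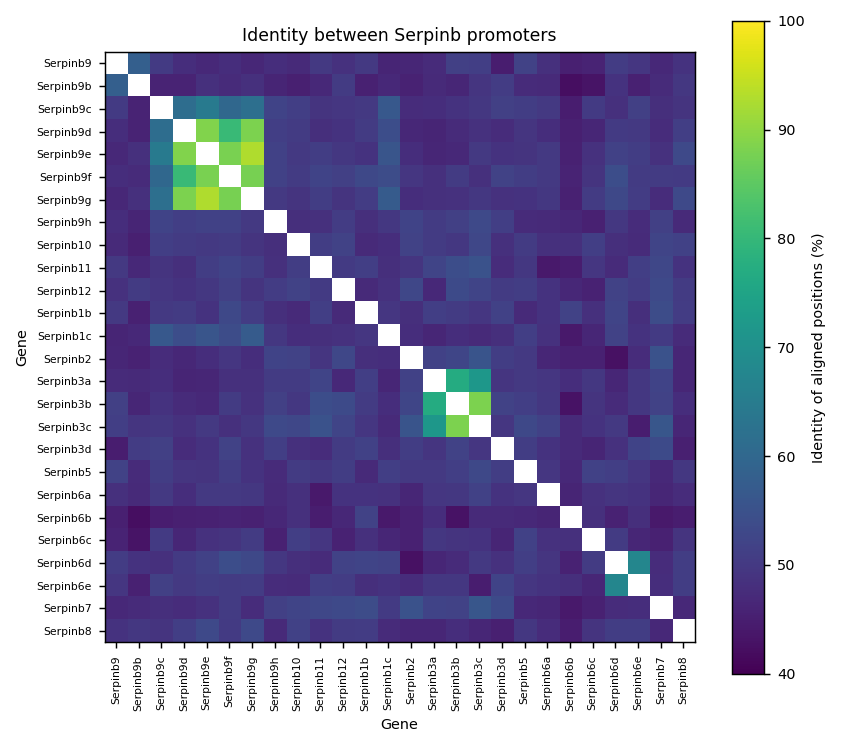
Identity between the 250 bases upstream of the 26 Serpinb genes that have an entry. Rows and columns are genes and colour is the percent of aligned positions that are identical; the block of Serpinb9d, 9e, 9f and 9g lies at 80.75% to 92.91%, against a median of 49.3% over all pairs.

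TGACGT, which was chosen after the sequences of Serpinb9e, Serpinb9f and Serpinb9g were seen, matched 5 of the 15 members on chromosome 13, namely Serpinb9c, 9d, 9e, 9f and 9g. It matched 0 of the 11 on chromosome 1, and 6.47% of all 32851 promoter windows of the same length. The AP-1 core TGANTCA matched 7 of the 11 members on chromosome 1, Serpinb2 and Serpinb8 among them, and 0 of the 15 on chromosome 13, against 6.75% of all windows. TATAAA matched 7 of 11 members on chromosome 1, with all 4 Serpinb3 genes, and 1 of 15 on chromosome 13, against 12.37% of all windows. The E2F-like core TTTNNCGC matched 0 of the 32 Serpinb windows and 4.28% of all windows. A match is a run of letters and not a measured binding site.

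Levels in the text are log2 intensity minus the 75th percentile of the array, and a difference is the Rb deleted mean less the Rb intact mean on that log2 scale, with the SE of the fit. Levels of different probes cannot be set against each other. On each array 58.7% to 63.3% of probes were well above background, and 0 spots were saturated. Over probes, which are no replicates, Pearson's r between arrays was 0.9968 to 0.998 within Rb deleted, 0.9928 to 0.9978 within Rb intact and 0.988 to 0.9931 between them. The targeted gene Rb1 stood at -2.98 ± 0.03 in Rb deleted and -1.03 ± 0.02 in Rb intact (SD, n = 3 each), so that its signal in Rb deleted was 25.9% of that in Rb intact. The arrays lay on 2 slides: the first held Rb deleted 1 with all Rb intact arrays, and the second held Rb deleted 2 and 3. Rb intact 1 stood apart from the other Rb intact arrays, with r of 0.9928 and 0.993 to them, against 0.9978 between those. For the Serpinb6 and Serpinb1 genes and Serpinb8, the difference without that array is given as well.

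Over the family, 4 of the 14 tested genes fell (Serpinb2, Serpinb9e, Serpinb9f and Serpinb9g) and 1 rose (Serpinb3c). Among all genes tested, 10.5% fell and 10.1% rose. Because this contrast chose the family, nothing is read from the members' share. Moreover, Serpinb9e, Serpinb9f and Serpinb9g passed the filter only through the Rb intact arrays, so they had to differ. Of the 11 members that were well above background on all 6 arrays, 1 fell and 1 rose. The groups did not overlap in 8 of the 14 members, against 45.4% of all genes tested, and the median difference was -0.16 over the 14, against 0.02 over all genes. In cultures of mixed cells, fewer cells of a type and less RNA per cell cannot be told apart.

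**Figure D2:**
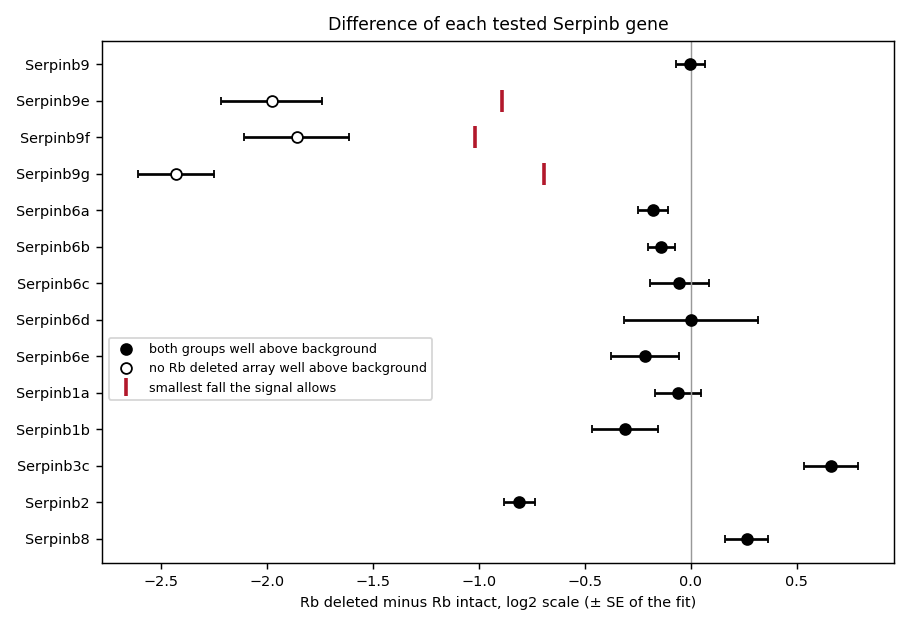
Difference between Rb deleted and Rb intact (horizontal axis, log2 scale) for the 14 tested Serpinb genes, with bars of 1 SE of the fit. Open circles mark Serpinb9e, 9f and 9g, for which no Rb deleted array was well above background. The red ticks beside them, labelled as the smallest fall, mark a working bound from 1.61-fold to 2.03-fold, which is not a strict limit. Serpinb9 lies at 0.

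Within the Serpinb9 subfamily, the close relatives Serpinb9e, Serpinb9f and Serpinb9g fell, and Serpinb9 did not. Serpinb9 encodes the inhibitor of granzyme B that shields cytotoxic lymphocytes and other cells from that protease. Its levels were -1.84, -1.81 and -1.85 in Rb deleted cultures, against -1.95, -1.77 and -1.78 in Rb intact cultures. The groups overlapped, and the difference was 0.00 ± 0.07.

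Serpinb9g was at -7.93, -7.51 and -8.22 in Rb deleted cultures, against -5.55, -5.35 and -5.47 in Rb intact cultures. All 3 Rb deleted arrays lay below all 3 Rb intact arrays. Its processed intensities were 15.0, 19.0 and 13.1 in Rb deleted and 69.2, 93.9 and 80.5 in Rb intact. No Rb deleted array was well above background, so the fold is given as a working bound. By that bound Serpinb9g was 1.61-fold lower, where the measured difference was -2.43 ± 0.18. For such bounds, a Rb deleted array counts at the lowest signal that any probe well above background had on it, unless the dim probe itself was brighter. The bound leaves out the spread of the Rb intact arrays, and it is a convention and not a strict limit.

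Serpinb9f had levels of -7.57, -6.86 and -6.54 in Rb deleted cultures and of -5.18, -5.07 and -5.14 in Rb intact cultures. Here too the groups did not overlap, and the 3 Rb intact arrays lay within a far narrower span than the 3 Rb deleted arrays, whose signals were not well above background. Its intensities were 19.3, 29.7 and 42.1 in Rb deleted and 89.5, 114 and 101 in Rb intact. By the same working bound Serpinb9f was 2.03-fold lower, with a measured difference of -1.86 ± 0.25.

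Serpinb9e was measured by a pair of probes that disagreed. The probe that passed, A_55_P1971430, gave -7.11, -7.78 and -6.81 in Rb deleted cultures, against -5.38, -5.13 and -5.27 in Rb intact cultures, with no overlap. Its intensities were 26.4, 15.7 and 34.8 in Rb deleted and 78.0, 109 and 92.8 in Rb intact. By the working bound the signal was 1.85-fold lower, with a measured difference of -1.98 ± 0.24. The other probe, A_51_P459128, gave -6.88, -7.47 and -6.60 in Rb deleted and -6.39, -6.98 and -7.24 in Rb intact. That probe was not well above background on any array, and its groups overlapped.

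The 3 passing probes also ranked the Rb intact arrays alike, with array 2 highest, then 3, then 1. That order was not particular to them. Serpinb9, Serpinb2, Serpinb6a and Serpinb6d had it too, and the remaining tested members did not. The probes of Serpinb9e, 9f and 9g did not rank the Rb deleted arrays alike, which were below the limit of detection. Whether each probe reads its own gene alone was not tested, so the 3 values may not be separate measurements. On the first slide alone, where 1 Rb deleted array met 3 Rb intact arrays and 1.11% of all genes were marked, the differences were -1.85 for Serpinb9e, -2.44 for Serpinb9f and -2.47 for Serpinb9g. With background modelled on the median spot signal they were -0.73, -0.58 and -0.72 in the same order. That model adds an offset of 50 to every signal. With slide as a block, where 4.90% of all genes were marked, Serpinb9e lost its mark at -1.85 ± 0.36.

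The other Serpinb9 genes stayed at or near background. Serpinb9b and Serpinb9c were not well above background on any array. Serpinb9d was at -5.53, -6.96 and -6.86 in Rb deleted cultures, against -6.23, -6.44 and -6.24 in Rb intact cultures. Only the Rb deleted 1 signal of Serpinb9d was well above background, and the groups overlapped. Its upstream sequence is nearly as close to those of Serpinb9e, 9f and 9g as they are to each other. Serpinb9d did not pass the filter, and its difference was not compared with theirs.

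**Figure D3:**
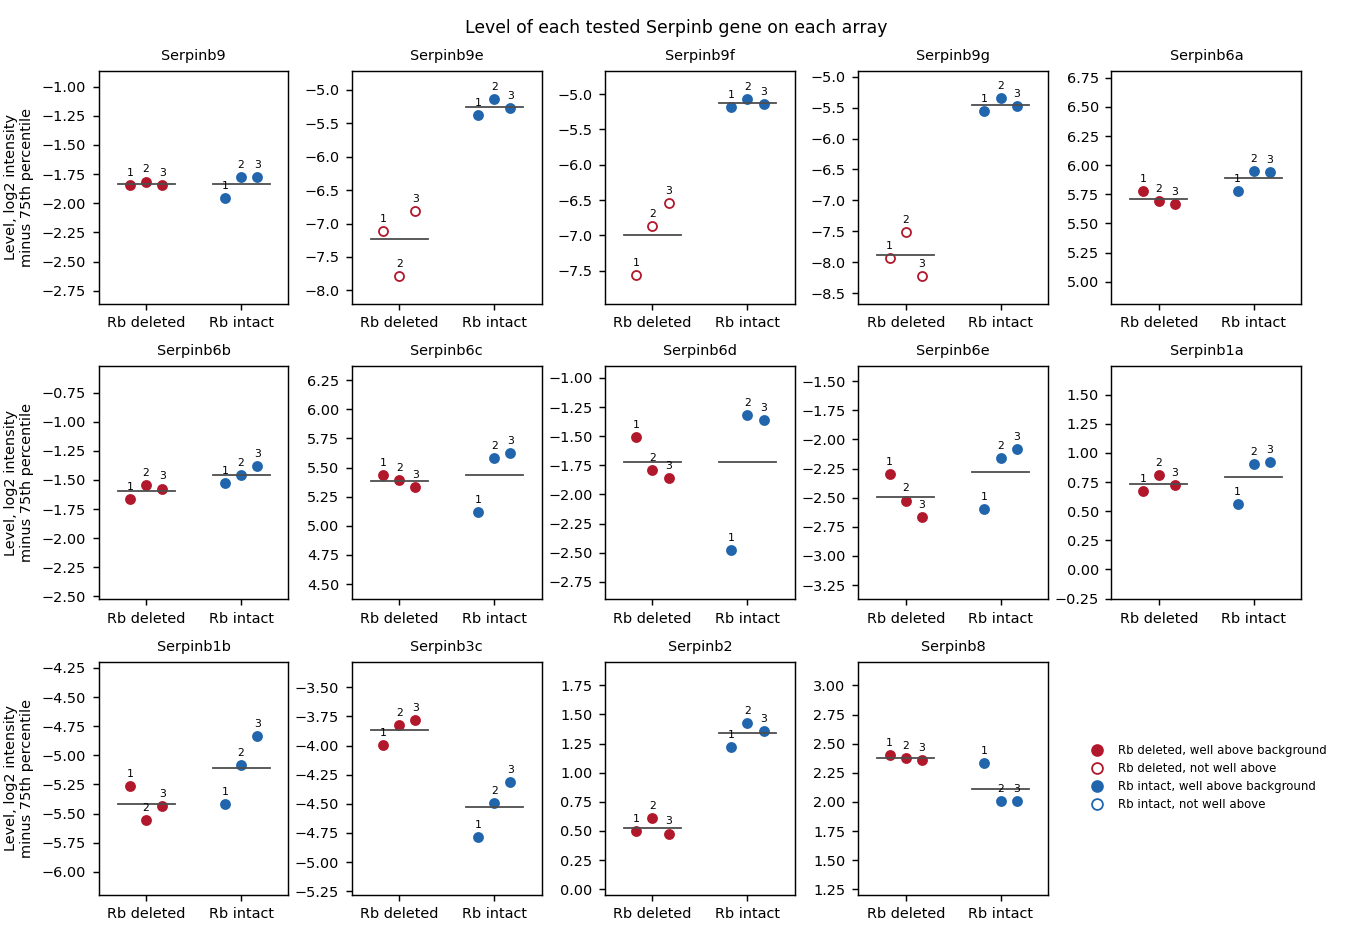
Level (vertical axis, log2 intensity minus the array's 75th percentile) of each of the 14 tested Serpinb genes on each array, numbered by replicate, with Rb deleted at left in red, Rb intact at right in blue, and a line at each group's mean. Filled circles are well above background and open circles are not; the open circles are the Rb deleted arrays of Serpinb9e, 9f and 9g, and each panel has its own vertical range.

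None of the 5 Serpinb6 genes rose or fell. Serpinb6a is the mouse counterpart of human SERPINB6, an inhibitor of cathepsin G. All 5 were well above background on all 6 arrays, and their differences lay between -0.21 and 0.00. Serpinb6a was at 5.77, 5.69 and 5.67 in Rb deleted cultures, against 5.78, 5.95 and 5.94 in Rb intact cultures, a difference of -0.18 ± 0.07, or -0.23 ± 0.05 without Rb intact 1. Serpinb6b was at -1.67, -1.54 and -1.57 in Rb deleted cultures, against -1.53, -1.46 and -1.38 in Rb intact cultures, a difference of -0.14 ± 0.06, or -0.18 ± 0.05 without Rb intact 1. In neither gene did the groups overlap, though Rb intact 1 lay close to the nearest Rb deleted array in both.

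Serpinb6c, Serpinb6d and Serpinb6e had overlapping groups, set by Rb intact 1, which was the lowest of the Rb intact arrays for each. Serpinb6c was at 5.44, 5.39 and 5.33 in Rb deleted cultures, against 5.12, 5.58 and 5.62 in Rb intact cultures, a difference of -0.05 ± 0.14, or -0.21 ± 0.05 without Rb intact 1. A second Serpinb6c probe gave -0.16 ± 0.08, with levels of 4.25, 4.09 and 4.10 in Rb deleted and 4.19, 4.34 and 4.39 in Rb intact. Both Serpinb6c probes therefore had Rb intact 1 below Rb deleted 1 and the other Rb intact arrays above every Rb deleted array.

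Serpinb6d was at -1.51, -1.79 and -1.86 in Rb deleted cultures, against -2.48, -1.32 and -1.36 in Rb intact cultures, a difference of 0.00 ± 0.32. Rb intact 1 deviated by -1.14 from the mean of the other Rb intact arrays there. Without Rb intact 1 the Serpinb6d difference was -0.38 ± 0.11, and on the first slide alone it was 0.21 ± 0.52, so its direction turned with the arrays used. Serpinb6e was at -2.29, -2.52 and -2.66 in Rb deleted cultures, against -2.59, -2.16 and -2.08 in Rb intact cultures, a difference of -0.21 ± 0.16, or -0.37 ± 0.11 without Rb intact 1. Without Rb intact 1, Serpinb6a and Serpinb6c were marked as lower, and no other Serpinb6 gene was.

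The Serpinb1 genes, relatives of the human inhibitor of neutrophil elastase, did not rise or fall. Serpinb1a was at 0.67, 0.81 and 0.73 in Rb deleted cultures, against 0.57, 0.90 and 0.92 in Rb intact cultures, a difference of -0.06 ± 0.11, or -0.18 ± 0.05 without Rb intact 1. Serpinb1b was at -5.27, -5.56 and -5.44 in Rb deleted cultures, against -5.42, -5.08 and -4.84 in Rb intact cultures, a difference of -0.31 ± 0.16, or -0.46 ± 0.11 without Rb intact 1. The groups of both genes overlapped through Rb intact 1, and Serpinb1b was marked as lower without that array. Serpinb1c was well above background on Rb deleted 1 only, at -5.62, against -6.74 and -7.33 on the other Rb deleted arrays and -6.99, -6.44 and -6.44 in Rb intact.

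Serpinb3c was the member that rose. The Serpinb3 genes are the mouse relatives of the human squamous cell carcinoma antigens, which inhibit lysosomal cysteine proteases and some serine proteases. Serpinb3c was at -3.99, -3.82 and -3.78 in Rb deleted cultures, against -4.78, -4.49 and -4.31 in Rb intact cultures. The groups did not overlap, and Serpinb3c was 1.58-fold higher in Rb deleted, a difference of 0.66 ± 0.13. Its probe was spotted 10 times on each array, with median intensities of 230.5, 255.7 and 302.6 in Rb deleted and 120.2, 167.3 and 180.3 in Rb intact. The SD over these spots was 0.157 to 0.204 in Rb deleted and 0.180 to 0.332 in Rb intact, which is the spread within an array and not between cultures. Single spots of the groups did overlap: the lowest spot of Rb deleted was at -4.25 and the highest of Rb intact at -4.05.

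The mark of Serpinb3c was lost with slide as a block (0.53 ± 0.19), on the first slide alone, without the filter, and without Rb deleted 2 (0.64) or Rb deleted 3 (0.62). Its direction was the same in each of these. Of the other Serpinb3 genes, Serpinb3a and Serpinb3d were not well above background on any array. Serpinb3b was so on Rb intact 1 only, with levels of -6.02, -8.58 and -7.79 in Rb deleted cultures and -4.79, -7.53 and -8.07 in Rb intact cultures. The upstream sequences of Serpinb3b and Serpinb3c are near copies too, at the identity given above, and whether their probes cross-react was not tested.

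Serpinb2, also called plasminogen activator inhibitor 2, inhibits the urokinase and tissue plasminogen activators. It was at 0.50, 0.61 and 0.48 in Rb deleted cultures, against 1.22, 1.43 and 1.36 in Rb intact cultures. The groups lay apart by far more than the spread within either, and Serpinb2 fell, 1.75-fold lower in Rb deleted, with a difference of -0.81 ± 0.07. It was the only member well above background on all 6 arrays that fell. On the first slide alone the difference was -0.84, without a mark. With each array left out in turn, with slide as a block and in every other setting tried, Serpinb2 kept its mark.

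Serpinb8, whose human counterpart inhibits furin in vitro, was at 2.40, 2.37 and 2.36 in Rb deleted cultures, against 2.33, 2.00 and 2.01 in Rb intact cultures. The groups did not overlap, but Rb intact 1 lay close to the Rb deleted arrays, and the difference of 0.26 ± 0.10 was not marked. Without Rb intact 1 it was 0.37 and was marked as higher. Serpinb10, known as bomapin and found mainly in blood-forming cells, was not well above background on any array.

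None of the 5 epithelial members passed the filter. Serpinb5 encodes maspin, a protein of epithelial cells that does not act as an inhibitor; Serpinb7 encodes megsin; and human SERPINB13 encodes headpin, an inhibitor of lysosomal cathepsins in squamous epithelium. Serpinb11 and Serpinb12 were not well above background on any array. Serpinb7 was so on Rb intact 1 only, with levels of -7.81, -8.20 and -7.99 in Rb deleted cultures and -5.81, -6.07 and -6.13 in Rb intact cultures. The groups of Serpinb7 did not overlap, and it was marked as lower where no filter was set. Those of Serpinb11 did not overlap either, in the other direction. Serpinb11 was at -7.63, -6.88 and -6.61 in Rb deleted cultures, against -8.06, -7.80 and -7.69 in Rb intact cultures. It was not marked where no filter was set.

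Serpinb5 and Serpinb13 were seen on Rb deleted 1 alone. Serpinb5 was at -3.85, -8.46 and -8.20 in Rb deleted cultures, against -8.21, -7.90 and -7.91 in Rb intact cultures. Its intensity was 253 on Rb deleted 1 and 9.85 to 16.1 on the other 5 arrays, so Rb deleted 1 was 4.04 above the next array on the log2 scale. Serpinb13 was at -4.55, -8.46 and -8.21 in Rb deleted cultures, against -8.37, -8.07 and -7.98 in Rb intact cultures. Its intensity was 156 on Rb deleted 1, which was 3.43 above the next array. Neither gene's signal was shared by another culture of its group, and a value of 1 array is no difference between groups.

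Of the 31 Serpinb probes, 4 were well above background on Rb deleted 1 only, those of Serpinb1c, Serpinb5, Serpinb9d and Serpinb13. Of all 39223 probes, 292 (0.744%) were. On Rb intact 1 only, 2 Serpinb probes were well above background (Serpinb3b and Serpinb7), and 567 of all probes (1.446%). On each of the other 4 arrays alone, 0 Serpinb probes and 180 to 553 of all probes were.

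**Figure D4:**
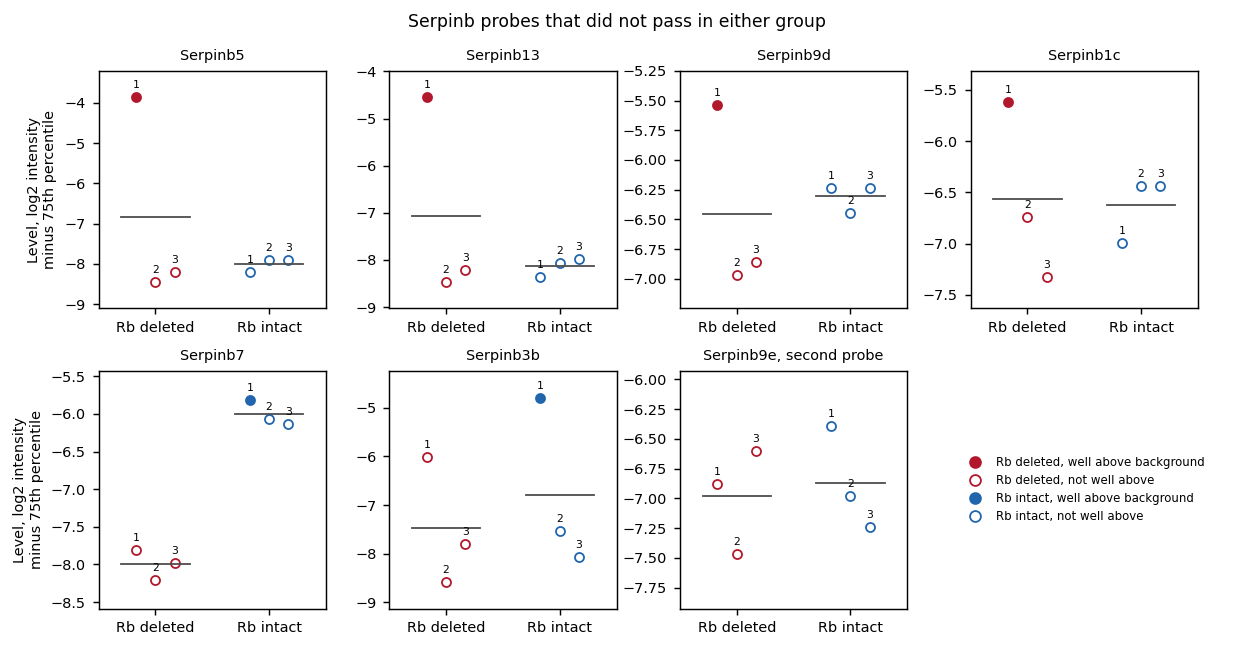
Level (vertical axis, log2 intensity minus the array's 75th percentile) on each array of 7 Serpinb probes that passed the filter in neither group, with Rb deleted at left in red and Rb intact at right in blue, numbered by replicate. Filled circles are well above background: Rb deleted 1 for Serpinb5, Serpinb13, Serpinb9d and Serpinb1c, and Rb intact 1 for Serpinb7 and Serpinb3b; lines are group means and each panel has its own vertical range.

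In all, 11 of the 27 genes with a probe were well above background on all 6 arrays, 7 on none and 9 on some. The 9 were Serpinb9e, 9f and 9g, each on the 3 Rb intact arrays, and the 6 genes seen on 1 array alone. Rb intact 1 was lower than the mean of the other Rb intact arrays for 13 of the 14 tested genes, Serpinb8 being the exception. Over all genes tested, the median of that deviation was 0.0085. Rb intact 1 lay over 0.5 from that mean, in either direction, in 1 of 14 members (7.14%), against 9.3% of all genes tested. Without Rb intact 1, 7 members were marked as lower and 2 as higher, where 17.7% of all genes were marked as lower and 20.2% as higher. The additions were Serpinb1b, Serpinb6a and Serpinb6c on the lower side and Serpinb8 on the higher.

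**Figure D5:**
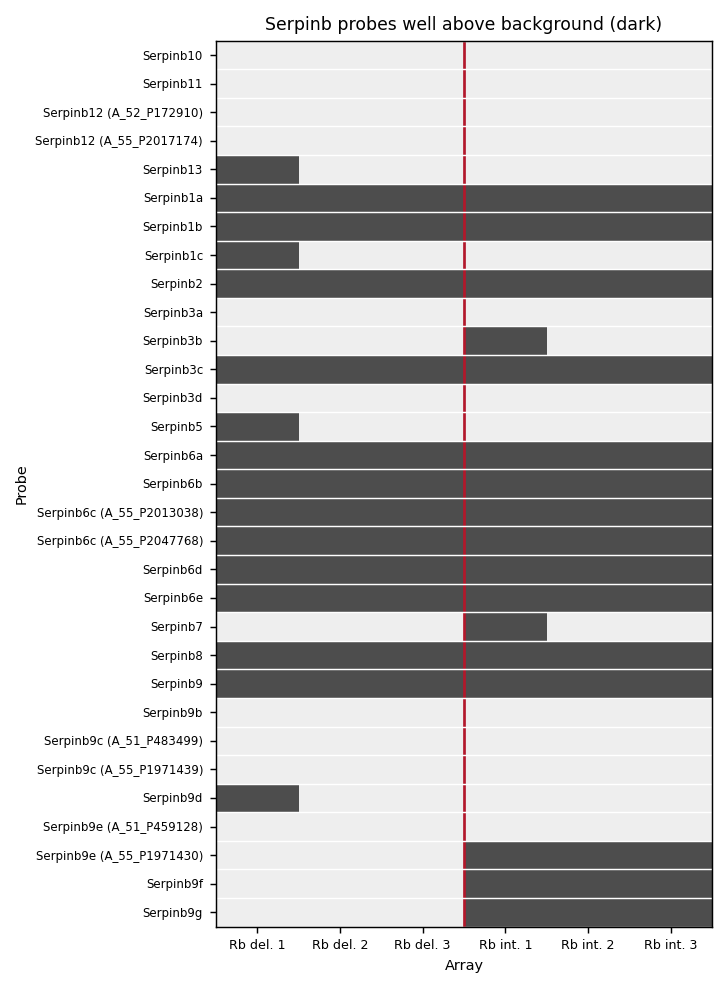
Detection of each of the 31 Serpinb probes (rows, by gene, with the probe named where a gene has more than 1) on each of the 6 arrays (columns, Rb deleted at left of the red line). Dark cells are well above background: 12 probes are dark throughout, 3 are dark on the Rb intact arrays alone, and 6 on 1 array alone.

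The genes that flank the 2 runs did not move as a block. Of the 3 nearest protein-coding genes on each side of each run, 9 of 12 were tested. Of these, 1 rose and 2 fell, where 10.1% of all genes tested rose and 10.5% fell. On chromosome 1, Kdsr, an enzyme of sphingolipid synthesis, was at 0.89 ± 0.03 in Rb deleted and 1.18 ± 0.01 in Rb intact (SD, n = 3 each) and fell by 0.29 ± 0.05 (limma adjusted p = 0.0102). Dsel was at 0.53 ± 0.04 in Rb deleted and 1.18 ± 0.22 in Rb intact and fell by 0.66 ± 0.11 (limma adjusted p = 0.0106). On chromosome 13, Wrnip1, a partner of the Werner helicase, was at 1.28 ± 0.06 in Rb deleted and 0.97 ± 0.06 in Rb intact and rose by 0.31 ± 0.06 (limma adjusted p = 0.0178). With slide as a block none of the 3 passed the test in limma. Without Rb deleted 3 none did either, and Wrnip1 also lost its call without any 1 of Rb deleted 2, Rb intact 2 or Rb intact 3. The apoptosis inhibitor Bcl2 (-0.18 ± 0.07) and the death receptor kinase Ripk1 (0.10 ± 0.11), which also lie beside the runs and are named for their roles after their values were seen, did not pass the test.

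The proteases that clade B serpins are known to act on, and related genes that are not all proteases, were measured beside them. The list held 37 genes, all with a probe. Of these, 22 were tested, 3 rose and 8 fell, with a median difference of -0.20, against 0.02 over all genes. Among all genes tested, 10.1% rose and 10.5% fell. Urokinase, Plau, a target of Serpinb2, was at 0.24 ± 0.02 in Rb deleted and 0.90 ± 0.15 in Rb intact (SD, n = 3 each). It fell by 0.66 ± 0.08 (limma adjusted p = 0.00377), and tissue plasminogen activator, Plat, fell too. Both Serpinb2 and this pair of its targets were lower in Rb deleted. The call of Plat was lost when any 1 array other than Rb intact 1 was left out.

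Caspase 1, Casp1, the protease that matures interleukin 1 beta, was at -2.62 ± 0.02 in Rb deleted and -1.98 ± 0.13 in Rb intact and fell by 0.64 ± 0.08 (limma adjusted p = 0.00326). The lysosomal cysteine protease Ctsk was at 4.29 ± 0.09 in Rb deleted and 4.87 ± 0.12 in Rb intact and fell by 0.58 ± 0.08 (limma adjusted p = 0.00615). The cathepsins Ctsb, Ctsd, Ctsh and Ctsz fell as well, but the calls of Ctsb, Ctsh and Ctsz were lost without any 1 of the 3 Rb deleted arrays or without Rb intact 3. Those of Ctsh and Ctsz were also lost without Rb intact 2, those of Ctsb and Ctsz under median scaling, and that of Ctsz under quantile normalization. Ctsl, at 6.92 ± 0.06 in Rb deleted and 7.04 ± 0.09 in Rb intact, did not pass the test (limma adjusted p = 0.248).

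The proteases that rose were St14, Gzmm and Ctsc. The membrane protease matriptase, St14, was at -4.03 ± 0.07 in Rb deleted and -4.78 ± 0.16 in Rb intact and rose by 0.75 ± 0.09 (limma adjusted p = 0.00336). Gzmm, a granzyme of lymphocytes, rose by 0.70 ± 0.11 (limma adjusted p = 0.0087), and Ctsc, which activates granule proteases, by 0.59 ± 0.13 (limma adjusted p = 0.0225). The call of Ctsc was lost without any 1 of Rb deleted 2, Rb deleted 3, Rb intact 2 or Rb intact 3. Gzmm and Ctsc are named to complete the count, and Plat and the cathepsins that fell as known targets or their relatives, all after their values were seen. With slide as a block in limma, 0 of the 22 tested genes of this list rose or fell, while 3 were higher and 6 lower at an unadjusted p under 0.05. Without 1 array the count of falls was 4 to 8. Granzyme B, the target of Serpinb9, was not well above background on any array, nor were Gzmc, Gzmd, Gzmf, Cma1, Plg, F2, Klk5 and Klk7.

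Markers of other cell types were measured alongside, and their part in the members' differences was not tested. Their counts stand beside the shares of all genes tested, of which 10.1% rose and 10.5% fell. Of 14 leukocyte markers with a probe, 5 were tested, 1 rose (Cd14, by 0.37 ± 0.07, limma adjusted p = 0.0128, a call lost without Rb deleted 2 or Rb deleted 3) and 0 fell. Ptprc, Cd3g and Cd8a were not well above background on any array, whereas Cd3e, Nkg7, Csf1r, Itgam and Cd14 were on all 6. Under the slide block, 0 leukocyte markers rose or fell in limma, and 1 was higher and 0 lower at an unadjusted p under 0.05. The summed leukocyte level was 2.71 to 2.86 in Rb deleted and 2.22 to 3.16 in Rb intact, the lowest being Rb intact 1. A summed level is the log2 of the added unlogged levels of a list's tested genes, and its brightest probes weigh most. Such a sum adds unlike probes and is no measure of how many cells of a type were present. Itgam, a leukocyte integrin singled out after its values were seen, was at 1.97, 1.75 and 1.73 in Rb deleted and 0.85, 2.53 and 2.55 in Rb intact, with Rb intact 1 lowest as for Serpinb6d. The other tested leukocyte markers differed in this. Rb intact 1 was the lowest Rb intact array for Nkg7 and Csf1r but not for Cd3e. For Cd14 it was the highest, with 0.16, 0.01 and -0.02 in Rb intact.

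Of 18 squamous genes, 12 were tested and 8 fell, with summed levels of 4.15 to 4.23 in Rb deleted and 4.96 to 5.19 in Rb intact, and a median difference of -0.72. Of the squamous genes, 7 fell with slide as a block, where 4.90% of all genes were marked. Ivl, which encodes involucrin of the cornified envelope, fell by 2.19 ± 0.06 (limma adjusted p = 8.3e-05). Of 8 basal markers, 6 were tested, 4 fell and 1 rose, with sums of 4.56 to 4.60 in Rb deleted and 5.01 to 5.27 in Rb intact. With slide as a block in limma, 1 of them fell and 0 rose, while 3 were lower and 1 higher at an unadjusted p under 0.05. As a check of the basal label, Krt14 and Trp63 were well above background on all 6 arrays and Krt15 on none. Of 9 luminal markers, 6 were tested and 1 fell (Cldn3, not so without Rb deleted 1, Rb deleted 3 or Rb intact 2), with sums of 4.69 to 4.82 in Rb deleted and 4.70 to 5.09 in Rb intact, and with slide as a block 0 rose or fell in limma, with 1 higher and 1 lower at an unadjusted p under 0.05. Krt8 and Krt18 were seen on all 6 arrays. Of 11 fibroblast and smooth muscle genes, 10 were tested and 3 fell, with sums of 8.92 to 9.04 in Rb deleted and 9.04 to 9.12 in Rb intact, and the same number, 3, fell with slide as a block; Myh11 was not well above background on any array.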

How the data were processed

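The authors deposited 1 scanner file per array, made with Agilent Feature Extraction 11.0.1.1 per the file headers and 10.7.3.1 per the submitters' processing notes. Per the file headers, the deposited intensity is a background-subtracted spot signal that was not scaled between arrays. The deposited files also hold flags of 0 or 1 for spots well above background, saturated or outlying. The authors' deposited table of log2 values held 22164 probes and equalled log2 intensity minus a constant per array, within 0.01 for 99.95% to 99.97% of probes; its column medians were -0.522 to -0.492, and what its constant stands for is unknown.

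Of 43020 non-control spots per array, 134 to 263 outlying ones were left out. Spots of a probe were averaged to 39223 probes; 206 more, whose spots were all outlying on an array, were dropped, with 0 Serpinb probes among them. RefSeq accessions without version gave 27307 probes a gene name, through a gene table of GRCm38.p6, and 11916 had none; the arrays' design build is mm9. The log2 intensity was shifted by each array's 75th percentile. A probe passed if well above background on all 3 arrays of a group (23016 probes), and a gene was its passing probe with the highest mean. The comparison used lmFit and eBayes of limma 3.58.1, run in R 4.3.3 without a block, and p-values were adjusted by Benjamini-Hochberg over the 13715 genes, with a threshold of 0.05. The fit was tested on simulated data. The labels do not say what separates the 3 cultures of a group beyond independent experiments, so p-values measure the spread between these samples. The number of arrays limits precision.

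Members, gene lists and tests were chosen with earlier results of these data known. All members with a passing probe are named; of each other list, up to 4 genes with the smallest adjusted p and the gene with the highest mean signal could be. Some genes that this rule allows are not reported here. Cell type markers are also named for whether they were detected, and genes named outside the rule were chosen after their values were seen. Upstream sequences were aligned globally (match 1, mismatch -1, gap open -2, gap extension -0.5). Alternatives covered scaling, background, the filter, the probe, the variance model, slide, replicate number, the deposited table and each array left out.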

Additional observations from a re-analysis of the deposited data

How the results depend on the processing

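Of all 13715 genes, 1391 rose and 1438 fell. With no filter on dim probes these counts were 633 and 866, with slide as a block 204 and 468, and on the first slide alone 27 and 125. Leaving out 1 array gave 477 (without Rb deleted 2) to 2777 (without Rb intact 1) rises and 767 (without Rb deleted 3) to 2423 (without Rb intact 1) falls. With the replicate number as a block they were 716 and 927. Deviations of same-numbered cultures correlated at -0.034, -0.05 and 0.015, none over 0.1. With so few arrays per group these values cannot settle whether same-numbered cultures share a source. The replicate block marked 1 Serpinb gene as higher and 4 as lower, the same genes as without it. Serpinb genes marked as higher were 0 with no filter, with slide as a block and on the first slide alone in limma, where 2, 1 and 0 had an unadjusted p under 0.05, and 0 to 2 when 1 array was left out. Serpinb genes marked as lower were 1 with the filter on all 6 arrays and 1 with the deposited table, which hold no probe of Serpinb9e, 9f or 9g that passed, and 4 to 7 when 1 array was left out. Of 232 recomputed differences of single members, 221 kept their side of the threshold, 7 lost the mark and 4 gained one. The sign turned in 15 of them, of Serpinb1a, 6c, 6d and 9, none of them marked; Serpinb6d reached -0.38 without Rb intact 1. The median difference of all genes stayed between -0.0008 and 0.0241. Signal over background limits Serpinb9e, 9f and 9g to bounds, and leaves 13 of the 27 genes with a probe untested.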

Other observations

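Serpins of other clades were lower more often than higher in Rb deleted cultures. Of 40 such genes in the gene table, 32 had a probe and 17 were tested. Of the 17, 8 fell and 1 rose, where 10.5% of all genes tested fell and 10.1% rose. The median difference was -0.23, against 0.02 over all genes. Serpina3n, a secreted acute phase inhibitor, was at -3.70 ± 0.11 in Rb deleted and -2.33 ± 0.08 in Rb intact (SD, n = 3 each), 2.59-fold lower in Rb deleted (limma adjusted p = 0.000298). Its relatives Serpina3f and Serpina3h fell by 1.19 ± 0.06 and 0.61 ± 0.06 (limma adjusted p = 0.000226 and 0.00174). The Serpina3 genes are close relatives of each other, and whether their probes cross-react was not tested. Serpine2, protease nexin 1, which inhibits thrombin and urokinase, was at -3.55 ± 0.08 in Rb deleted and -2.31 ± 0.17 in Rb intact, 2.37-fold lower in Rb deleted (limma adjusted p = 0.00073). Serpinf1, which encodes pigment epithelium-derived factor, was at 4.85 ± 0.03 in Rb deleted and 4.90 ± 0.02 in Rb intact and did not pass the test (limma adjusted p = 0.436). With slide as a block in limma, where 4.90% of all genes were marked, 7 of the 17 fell and 0 rose. At an unadjusted p under 0.05 in that fit, 8 were lower and 0 higher.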
